A study of Mus musculus with 12 samples.

Results

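The 10 genes described here encode the machinery that keeps β-catenin low in a resting cell, together with β-catenin itself and one of its DNA-binding partners. They are the scaffold genes *Apc*, *Apc2*, *Axin1* and *Amer1*, the kinase genes *Csnk1a1*, *Gsk3a* and *Gsk3b*, the ubiquitin ligase receptor gene *Btrc*, the β-catenin gene *Ctnnb1*, and *Tcf7l2*. They were chosen by their place in the pathway and not by any measured value, though earlier results of these data were known at the time. All 10 were found by symbol among the 38924 genes counted. RNA of samples labelled proximal colonic mucosa, which the study's methods describe as sections of proximal colon, was sequenced from 6 mice of the APC Min/+ genotype and 6 of the WT genotype, all of them female C57BL/6 mice at 6 weeks of age, and the labels give no treatment to either group. APC Min/+ mice carry the Min allele, a truncating mutation, on 1 copy of *Apc* in every cell, and WT mice carry no mutated copy. The genotypes were housed in separate cages, so cage and genotype cannot be told apart, and 3 shipments of mice were used without a label of which mouse came in which shipment. The counts are sums per gene and do not separate the Min transcript from the normal one.

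In the absence of a Wnt signal, AXIN1 and APC hold β-catenin close to the kinases, CK1α (from *Csnk1a1*) adds a first phosphate and the GSK3 kinases add the following ones. The phosphorylated stretch is then read by β-TrCP (from *Btrc*), which passes β-catenin to the proteasome. When the complex is lost or silenced, β-catenin accumulates and works with TCF factors such as TCF7L2, the main one of the intestinal crypt. Loss of APC function is the classic opening event of intestinal tumors.

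The stretch on which these proteins act is short, and it is shown because the scaffolds hold it, the kinases mark it and β-TrCP reads it. In the longest coding transcript of *Ctnnb1* (781 codons in 14 coding exons, GENCODE M21) it lies in exon 3, on the forward strand of GRCm38 at chr9:120950596-120950649, from codon 30 to codon 47. The capitals mark codons 33, 37 and 45, which encode serine, and codon 41, which encodes threonine. CK1α phosphorylates the last of them and the GSK3 kinases the others, and β-TrCP binds around the first pair.
Ctnnb1: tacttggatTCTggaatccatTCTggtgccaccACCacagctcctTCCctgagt

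Some libraries stood apart from the rest, and the results below are given with and without them where they matter. Depth, as the total of counts, was 81730206 to 197914821 for APC Min/+ and 50313805 to 117477400 for WT libraries. Posterior Hox genes, which mark distal gut, summed to 468 CPM (counts scaled to library size) in the APC Min/+ mouse M10_2 and 554 CPM in the APC Min/+ mouse M13_1. The same sum was 2.93 CPM at most in the others, with *Hoxb13* and *Hoxd12* at 0 in at least 1 mouse. Epithelial markers, led by *Car1* (a carbonic anhydrase of colonocytes, 965 to 32560 CPM), were counted in every mouse and summed to 14790 CPM in M10_2 and 14627 in M13_1, against 26287 to 50812 CPM in WT mice. That sum was carried by *Car1*, at 965 CPM in M10_2 and 2539 in M13_1 and at 14621 CPM or more in the others. Of the 12 epithelial markers, *Car1*, *Krt20* and *Cdx2* were lower in both mice than in all others, *Cdh1* was higher, and 8 did neither. Without *Car1* the sums of 13824 and 12088 CPM lay inside the 10988 to 18252 CPM of the other mice, and the mean log2 CPM of the 12 markers was lowest in M17_1 (9.34) and M13_1 (9.35). Smooth muscle markers, led by *Myh11*, summed to between 5555 and 8171 CPM over the 12 mice, so the libraries held RNA of tissue other than epithelium. Markers of pacemaker cells, led by *Ano1*, summed to 452 CPM in M10_2 and 421 in M13_1, against 111 to 215 CPM in the others. *Ano1* alone ran from 36.2 to 363 CPM, so the sum leans on 1 of the 3 markers. The mean log2 CPM of the 3 was 6.17 in M10_2 and 5.92 in M13_1, against 4.83 to 5.73 in the others. A change in the number of these cells was not tested. Markers of enteric neurons summed to 149 to 221 CPM in APC Min/+ mice and 84.4 to 211 CPM in WT mice. The WT mouse M17_1 had 12.7% of its counts on mitochondrial genes, against 4.35% to 8.46% in the others. The summed levels of the genotypes overlapped for all 12 marker lists. Libraries also differed in how their counts depended on base composition. The GC slope, the change of log2 CPM from the median library for every 10 percentage points of transcript GC content, ran from -0.42 in M17_1 to 0.17 in M10_2 over 12248 genes, and was -0.22 in both the WT mouse M18_2a and the APC Min/+ mouse M2_A.

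The 10 genes covered a wide range of levels. Levels were compared between genes as RPKM, which divides the count by gene length and library total. *Ctnnb1* was the highest with a mean of 206 RPKM over the 12 mice, followed by *Csnk1a1* at 43.2 RPKM and *Gsk3a* at 27.9 RPKM. Next came *Apc* at 12 RPKM, close to *Gsk3b* at 10.9 RPKM and *Axin1* at 10.9 RPKM. *Tcf7l2* had 7.70 RPKM, *Btrc* 3.82 RPKM, *Amer1* 2.3 RPKM and *Apc2* 0.179 RPKM. In ratio to *Apc* in the same mouse, *Ctnnb1* was at 17.4, *Csnk1a1* at 3.62, *Gsk3a* at 2.32, *Gsk3b* at 0.908, *Axin1* at 0.905, *Tcf7l2* at 0.640, *Btrc* at 0.323, *Amer1* at 0.193 and *Apc2* at 0.0150. The RNA of β-catenin was thus far above that of every scaffold gene, and the second *Apc* gene was the lowest of all.

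**Figure D1:**
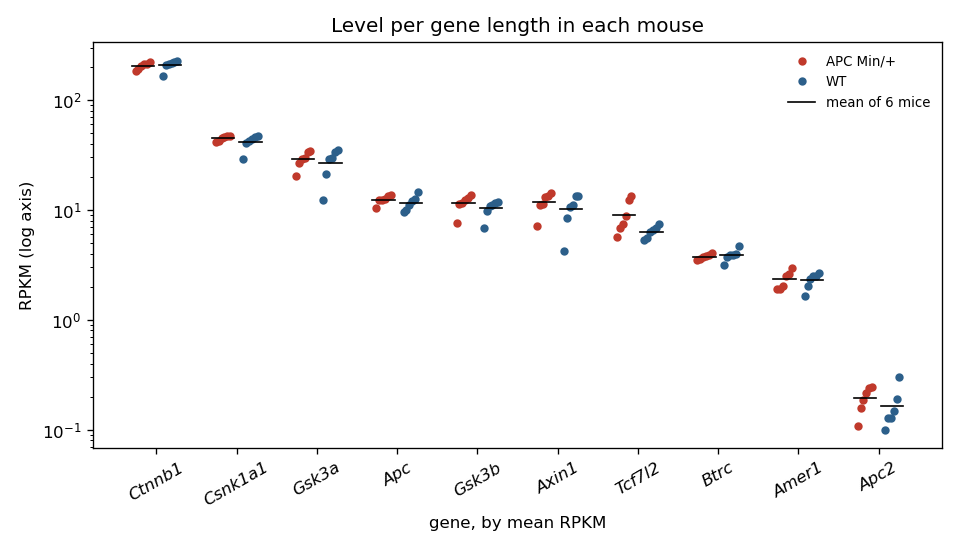
RPKM on a log axis for each gene in each of the 12 mice, with genes ordered by their mean RPKM and a black line at the mean of the 6 mice of a genotype. The genes run from Ctnnb1 at 206 RPKM to Apc2 at 0.179 RPKM, and the points of the genotypes overlap for all 10 genes.

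Most neighbours in this order kept it in all 12 mice. The order came from the same mice, and the test below asks only whether the mean log2 ratio differs from 0. With an exact sign-flip permutation test on the log2 ratio in each mouse (two-sided, 9 pairs of neighbours, Benjamini-Hochberg adjusted), 6 of the 9 pairs kept their order in 12 of 12 mice at an adjusted p of 0.000732, from the smallest p that 12 mice allow, 0.000488. *Apc* was above *Gsk3b* in 11 of 12 mice (adjusted exact p = 0.0107, mean log2 ratio 0.15 ± 0.18, SD). *Axin1* was above *Tcf7l2* in 10 of 12 mice (adjusted exact p = 0.0126, mean log2 ratio 0.50 ± 0.52, SD). In both pairs the mean ratio was smaller than its SD. *Gsk3b* and *Axin1* could not be ordered, since *Gsk3b* was the higher in 6 of 12 mice (adjusted exact p = 0.601, mean log2 ratio 0.05 ± 0.29, SD). The place of *Btrc* rests on the gene length in the files, 6323 bp. With the 16908 bp of GENCODE M21 its ratio to *Apc* would be 0.124 and it would fall below *Amer1*. *Gsk3a* has 2260 bp in the files and 2900 bp in GENCODE M21. With the GENCODE M21 lengths its ratio to *Apc* would be 1.85, which leaves its place unchanged.

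*Apc*, which encodes the large scaffold that the Min allele truncates (ENSMUSG00000005871.8, GRCm38 chromosome 18, 34220924 to 34322552), had nearly the same level in both genotypes. The values were 164 CPM at the lowest, 193 at the median and 216 at the highest in APC Min/+ mice, and 154, 185 and 239 CPM in WT mice, so the WT range enclosed all 6 APC Min/+ mice. The difference came to 0.05 in log2 fold change (SE, the standard error, 0.117, FDR 0.947, edgeR quasi-likelihood test), with a 95% interval from a fold of 0.866 to a fold of 1.23. In bulk tissue a difference in such a value could come from fewer cells of a type or from less RNA per cell, which cannot be told apart.

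None of the other scaffold genes passed the test, and their values overlapped between genotypes. *Axin1*, the limiting scaffold of the complex in many cells (chromosome 17, 26138688 to 26195811), had 27.6, 46.2 and 54.9 CPM as lowest, median and highest value in APC Min/+ mice and 16.4, 44.0 and 50.2 CPM in WT mice. M2_A held the low end in APC Min/+ and M17_1 that in WT, and the log2 fold change was 0.15 (SE 0.239, edgeR FDR 0.918). *Amer1*, an X-linked gene for a membrane-bound partner of APC (95420318 to 95444872), was at 16.5, 18.8 and 23.1 CPM in APC Min/+ and at 15.3, 20.6 and 22.0 CPM in WT, its log2 fold change being -0.02 (SE 0.122). *Apc2*, the relative of *Apc* that is best known from the nervous system (chromosome 10, 80295977 to 80318263), was counted in every mouse, with 118 to 538 counts, and ran from 1.24 to 2.76 CPM in APC Min/+ and from 1.18 to 3.18 CPM in WT mice. Its interval of the log2 fold change, -0.36 to 0.77, was the widest of the 10. It is overlapped on the other strand by the coding gene *2310011J03Rik*, and the strand setting of the counting is not given in the sources used here, so a part of its few reads may belong to that gene. All of the 10 genes but *Amer1* and *Csnk1a1* overlap some other annotated gene in GENCODE M21, among them an antisense gene at *Gsk3a* and both an antisense gene and *Ulk4* at *Ctnnb1*, and the same uncertainty holds for their counts.

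The kinase genes also overlapped between genotypes. *Csnk1a1* (chromosome 18, 61555274 to 61590061) had 427, 465 and 496 CPM as lowest, median and highest value in APC Min/+ mice and 312, 454 and 509 CPM in WT mice. This made a log2 fold change of 0.07 (SE 0.119, edgeR FDR 0.925). *Gsk3a* (chromosome 7, 25228258 to 25237851) was at 46.3, 66.0 and 78.6 CPM in APC Min/+ and at 28.0, 69.2 and 78.5 CPM in WT mice, so that the median was lower and the mean higher in APC Min/+ mice (log2 fold change 0.06, SE 0.218, edgeR FDR 0.962). *Gsk3b* (chromosome 16, 38089001 to 38246084) was at 76.1, 116 and 128 CPM in APC Min/+ and at 67.7, 107 and 120 CPM in WT, which gave 0.12 as log2 fold change (SE 0.154, edgeR FDR 0.911). The lowest WT value of all 3 kinase genes came from M17_1, the library with the most mitochondrial counts.

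*Btrc* had the smallest spread of the 10 over all 12 mice, an SD of 0.12 in log2 CPM. This receptor gene (chromosome 19, 45363734 to 45530013) had 20.2, 23.6 and 25.1 CPM in APC Min/+ and 21.9, 25.0 and 27.7 CPM in WT mice. Its log2 fold change came to -0.09 (SE 0.0847, edgeR FDR 0.91), with a 95% interval from -0.27 to 0.09, the narrowest of the set.

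*Ctnnb1* (ENSMUSG00000006932.10, chromosome 9, 120929216 to 120960507) had overlapping RNA levels in both genotypes. β-catenin is controlled mainly through the stability of the protein, which was not measured. The values were 859, 1074 and 1120 CPM in APC Min/+ mice, the lowest being M13_1, and 845, 1121 and 1211 CPM in WT mice, the lowest being M17_1. The log2 fold change of -0.08 (SE 0.119, edgeR FDR 0.917) turned to 0.01 without M10_2 and M13_1.

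*Tcf7l2* (chromosome 19, 55741820 to 55933654) had the largest fold change of the 10, and it rested on 2 mice. Among APC Min/+ mice, M13_1 had 106 and M10_2 had 102 CPM, while the other 4 were at 50.2, 57.7, 67.9 and 78.7 CPM. WT mice had 45.6 to 71.0 CPM with a median of 57.3 CPM. APC Min/+ exceeded WT by a log2 fold change of 0.45 (SE 0.186, 95% interval 0.05 to 0.85) at an FDR of 0.908 in edgeR's quasi-likelihood test. Without M10_2 and M13_1 it was 0.17 (interval -0.16 to 0.50). Those mice were the same ones with high posterior Hox counts and low *Car1*, *Krt20* and *Cdx2*, and the part of tissue composition in the *Tcf7l2* level was not tested.

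**Figure D2:**
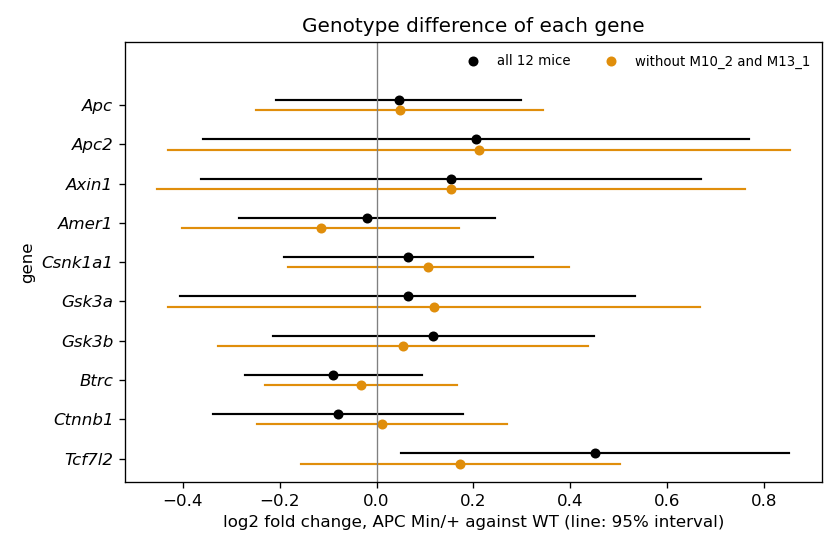
Log2 fold change of APC Min/+ against WT mice for each gene (points) with its 95% interval (lines) from edgeR's quasi-likelihood test, with all 12 mice in black and without M10_2 and M13_1 in orange. The interval of Tcf7l2 runs from 0.05 to 0.85 with all mice and reaches below 0 without the 2 mice, and all other intervals include 0 in both fits.

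Over the whole set, 0 of the 10 genes were called at an FDR under 0.05 with a 2-fold change, where 0% of the 20311 genes tested were called. At an unadjusted p under 0.05 there was 1 of 10, *Tcf7l2*, where 5.27% of all genes tested passed. DESeq2 called 0.133% and edgeR's exact test 0.507% of all genes, and neither called any of the 10. The CPM values of the genotypes overlapped for 10 of 10 genes, and 0.118% of all genes tested had no overlap. The mean was higher in APC Min/+ mice for 7 of 10 genes, where the same held for 48.4% of all genes tested. The median log2 fold change was 0.07, beside -0.01 over all genes tested. Among the 7, *Apc*, *Axin1*, *Gsk3a*, *Gsk3b* and *Csnk1a1* turned lower in some alternative fits. Genes counted in the same mice are also not separate observations.

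Set against *Apc* in the same mouse, none of the other 9 genes passed the test. The log2 ratio of counts to *Apc* was compared between genotypes by an exact permutation test (two-sided, 924 splits of the mice, adjusted over 9 genes), and the 9 ratios share *Apc* as their base. *Tcf7l2* to *Apc* was the most different, at -1.37 ± 0.39 (SD, n = 6) in APC Min/+ and -1.72 ± 0.35 (SD, n = 6) in WT mice (exact p = 0.149, adjusted 0.776). *Ctnnb1* to *Apc* was 2.41 ± 0.21 in APC Min/+ and 2.54 ± 0.17 in WT mice (SD, n = 6 each, exact p = 0.26, adjusted 0.776). *Btrc* to *Apc* was -3.04 ± 0.20 and -2.89 ± 0.25 (SD, n = 6 each, exact p = 0.29, adjusted 0.776). The remaining 6 genes had differences between -0.08 (*Amer1*) and 0.16 (*Apc2*), with adjusted exact p-values from 0.776 to 0.825.

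How far mice of the same genotype lay apart differed from gene to gene. The spread is given as the SD of log2 CPM over 6 mice and set beside the 9954 genes tested with a mean of at least 10 CPM, whose median spread was 0.24 in APC Min/+ and 0.23 in WT mice. *Btrc* was tight in both, at 0.12 in APC Min/+ and 0.11 in WT mice, below which lay 11.5% and 8.64% of those genes. *Csnk1a1* was at 0.09 in APC Min/+ mice and 0.25 in WT mice, and *Apc* at 0.13 and 0.23. *Axin1* was at 0.35 in APC Min/+ and 0.61 in WT mice, wider than 93.7% of those genes in WT. *Gsk3a* was at 0.28 and 0.56, wider than 91.7% in WT. *Tcf7l2* went the other way, with 0.44 in APC Min/+ and 0.23 in WT mice. The wide WT spread of *Axin1* and *Gsk3a* came with M17_1, at 16.4 and 28.0 CPM, where the next lowest WT mouse, M18_2a, had 33.7 and 50.6 CPM.

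**Figure D3:**
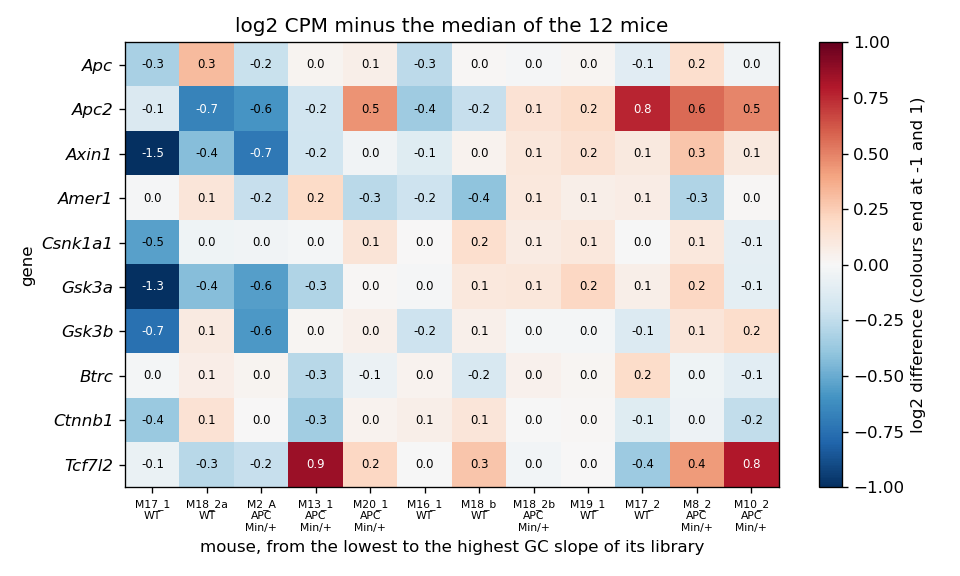
Log2 CPM of each gene in each mouse minus the median of the 12 mice, as colour and number, with mice ordered by the GC slope of their library. Axin1 and Gsk3a are lowest in the 3 libraries with the lowest GC slope (M17_1, M18_2a and M2_A), and Tcf7l2 is highest in M13_1 and M10_2.

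Across the 12 mice, 3 of the 45 pairs among these genes had an adjusted permutation p under 0.05 by both Pearson's r and Spearman's rho. With the GC slope of the libraries, described below, taken out in either of 2 ways, 5 of the 45 pairs did, but not the same 5 in both. This family of pairs was chosen after seeing the data, and the p-values come from 100000 permutations adjusted over the 45 pairs. Of the pairs with *Apc*, the one with *Gsk3b* had the highest r, 0.79 (adjusted permutation p = 0.01). Its rho of 0.75 missed the threshold (adjusted 0.0781). It passed by both measures with the GC slope taken out, at r = 0.92 by the common term and 0.88 by each gene's own fit. *Apc* (44.3% GC) and *Gsk3b* (46.1% GC) are close in GC content. The common term therefore moves both alike in a library and can itself raise r. *Axin1* and *Gsk3a* rose and fell together, with r = 0.98 (adjusted permutation p = 0.0009) and rho = 0.92 (adjusted 0.00315), within APC Min/+ mice r = 0.94 and within WT mice r = 0.99. Leaving out M2_A and M17_1, the mice farthest from the median of *Axin1*, left r at 0.90. *Gsk3a* and *Csnk1a1* had r = 0.91 (adjusted permutation p = 0.01) and rho = 0.80 (adjusted 0.0398), with r = 0.70 without M2_A and M17_1, 0.69 within APC Min/+ and 0.96 within WT mice.

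*Btrc* and *Tcf7l2* moved in opposite directions. Their r was -0.87 (adjusted permutation p = 0.00203) and rho -0.89 (adjusted 0.00473), with r = -0.87 within APC Min/+ mice and -0.92 within WT mice, -0.77 without M13_1 and M17_2, and -0.83 without M10_2, M13_1 and M17_1. Taking out the GC slope gave different values by the way it was done. With a common GC term per library taken out, r was -0.14 (adjusted permutation p = 0.867). With each gene's own fit on the GC slope taken out, r was -0.93. *Btrc* itself had r = -0.0006 with the GC slope, and the common term moved its r with *Axin1* from -0.03 to 0.72. Which way suits *Btrc* was not tested. The mouse with the most *Btrc*, the WT mouse M17_2 at 27.7 CPM, had the least *Tcf7l2* at 45.6 CPM. The mouse with the least *Btrc*, M13_1 at 20.2 CPM, had the most *Tcf7l2* at 106 CPM. The whole range of *Btrc* was 1.37-fold and that of *Tcf7l2* 2.33-fold.

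**Figure D4:**
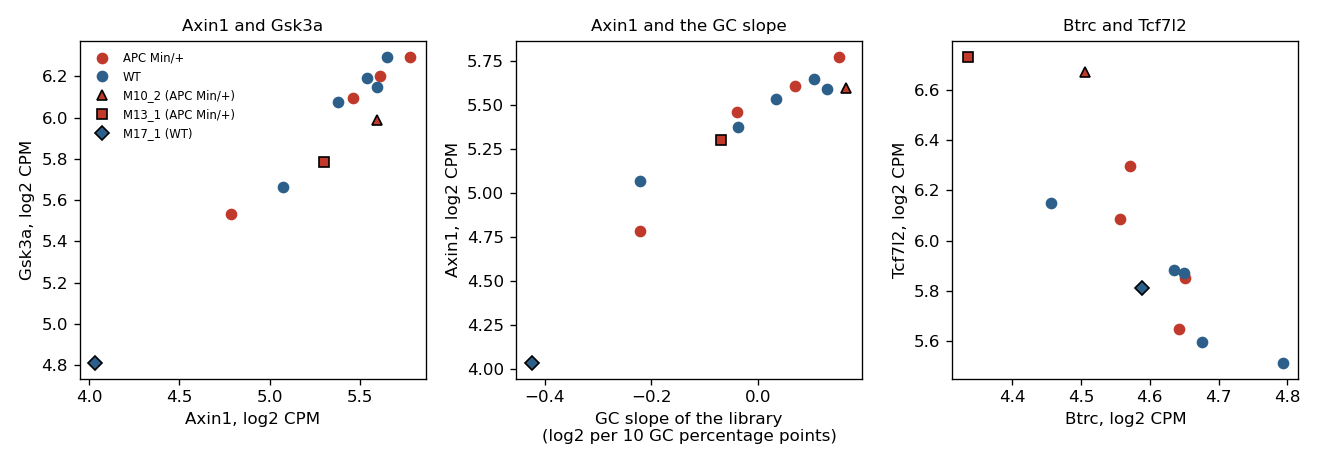
Each point is 1 of the 12 mice, with genotype as colour and 3 mice as separate symbols. The left panel plots Gsk3a against Axin1 (r = 0.98), the middle panel Axin1 against the GC slope of the library (r = 0.95) and the right panel Tcf7l2 against Btrc (r = -0.87), all genes in log2 CPM.

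The GC slope of a library moved with some of these genes. It was fitted to the counts of the same libraries, so genes rich in GC are likely to follow it by construction. The p-values are therefore descriptive, and other genes of like GC content were not set beside these. *Axin1* followed the slope at r = 0.95 (rho = 0.91, adjusted permutation p = 0.0001 and 0.0009 over 10 genes). Its r was 0.93 without the 2 mice of lowest slope, 0.94 within APC Min/+ and 0.96 within WT mice. *Gsk3a* followed it at r = 0.91 (rho = 0.75, adjusted permutation p = 0.00065 and 0.023) and *Apc2* at r = 0.70 (rho = 0.75, adjusted 0.0265 and 0.023). These are the 3 genes of the set with the most GC in their longest transcript, 56.6% in *Axin1*, 59.8% in *Gsk3a* and 61.4% in *Apc2*, against a median of 49.6% over the genes compared. *Gsk3b* (46.1% GC) and *Csnk1a1* (43.3% GC) had r = 0.75 and 0.72 but rho = 0.48 and 0.36. *Btrc*, with the least GC (40.6%), had r = 0.00 and *Tcf7l2* (47.3% GC) r = 0.35. With each gene's own fit on the GC slope taken out, r was 0.88 for *Axin1* and *Gsk3a* and 0.91 for *Gsk3a* and *Csnk1a1*. With 1 common GC term per library taken out in place of it, r was 0.93 and 0.95.

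Markers of other cell types were set beside the genes in 30 further relations. *Csnk1a1* followed the mean level of the epithelial markers, with r = 0.77 and rho = 0.89 (adjusted permutation p = 0.0051 and 0.0084), r = 0.81 within APC Min/+ and 0.93 within WT mice. *Ctnnb1* had r = 0.84 with the same markers, but rho = 0.64 missed the threshold (adjusted permutation p = 0.0169 and 0.181) and r was 0.17 without M10_2, M13_1 and M17_1. No further relation had an adjusted permutation p under 0.05 by either measure. The nearest with the epithelial markers were *Gsk3a* (r = 0.71, rho = 0.71, adjusted permutation p = 0.0715 and 0.123) and *Amer1* (r = -0.67, rho = -0.69, adjusted 0.137 and 0.128). With the enteric neuron markers the nearest was *Apc2* (r = 0.62, rho = 0.73, adjusted permutation p = 0.152 and 0.123).

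Over 14903 genes with a mean of at least 1 CPM, those most like each of 4 genes across the 12 mice were found by Pearson's r of log2 CPM, as a description. For *Apc* they were *Aff4* (r = 0.94), *Trip11* (0.94), *Zfp407* (0.93), *Lats1* (0.90) and *Rbm12* (0.89). For *Apc2* they were *Ptprn* (r = 0.95), *Slc4a3* (0.95), *Cntfr* (0.94), *Cbarp* (0.93) and *Six5* (0.92). *Ctnnb1* was followed most closely by *Cln8* (r = 0.94), *Gnb5*, *Lhfpl2*, *Lrrc1* and *Dgat2*, and *Tcf7l2* by *Otub1* (r = 0.93), *Btbd19*, *Gmeb1*, *Sprr2a3* and *Id1* (0.90).

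A list of 53 other genes of the pathway gave 0 called genes and 2 with an unadjusted p under 0.05. Of all genes tested, 0% were called and 5.27% had an unadjusted p under 0.05. The 2 pathway genes, *Tcf7l1* and *Tle4*, encode nuclear partners and were higher in APC Min/+ mice. *Tcf7l1*, a TCF factor mostly known as a repressor, had 47.9 CPM in M10_2 and 38.8 in M13_1, while the remaining APC Min/+ mice ranged from 8.54 to 19.4 CPM and WT mice from 4.14 to 13.9 CPM. The log2 fold change of 1.15 (SE 0.438, edgeR FDR 0.908) became 0.29 without M10_2 and M13_1. *Tle4*, a corepressor gene named after its value was seen, had 109 CPM in M10_2, 118 CPM in M13_1 and 32.4 to 69.2 CPM in the remaining APC Min/+ mice. Its log2 fold change, 0.65 (SE 0.262, edgeR FDR 0.908), became 0.17 without them. Without both mice 0 of the 53 genes passed the unadjusted threshold, where 317 of the 19978 genes tested did. The mean was higher in APC Min/+ mice for 39 of 53 genes (73.6%), where the same held for 48.4% of all genes tested, and the median log2 fold change was 0.08. These genes were counted in the same mice and are not independent, and genes of like level were not set beside them.

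Within the pathway groups, the gene of lowest p was called in none, and *Tcf7l1* alone of these genes had an unadjusted p under 0.05. Among 7 scaffold and regulator genes *Axin2*, a feedback inhibitor and Wnt target, was at 21.2 ± 7.46 CPM in APC Min/+ and 17.7 ± 4.86 CPM in WT mice (SD, n = 6 each), a log2 fold change of 0.27 (edgeR FDR 0.91) that was 0.04 without M10_2 and M13_1. The most abundant of them, *Macf1*, had 0.02. Of 19 kinase and phosphatase genes *Ppp2cb*, a catalytic subunit of PP2A, was at 101 ± 18.8 CPM and 80.6 ± 17.3 CPM (log2 fold change 0.32, edgeR FDR 0.908), with 123 CPM in M10_2, 127 CPM in M13_1 and a log2 fold change of 0.14 without them, while the more abundant catalytic subunit gene *Ppp2ca* had 0.01. In the ubiquitin ligase group of 6, *Fbxw11*, the paralog of *Btrc*, had 0.16 (edgeR FDR 0.91), or 0.05 without M10_2 and M13_1, and *Skp1a*, the most abundant, 0.00. For the 3 Dishevelled genes the values were 0.12 for *Dvl3* (0.05 without those mice) and -0.06 for *Dvl1*. *Chd8*, the most abundant of 14 nuclear partner genes, had 0.02. Of 4 adhesion partner genes *Cdh1*, for E-cadherin, which binds β-catenin at cell junctions, reached 1490 CPM in M10_2 and 1199 in M13_1, while the remaining APC Min/+ mice had 462 to 871 CPM and WT mice 297 to 857 CPM. A log2 fold change of 0.53 (SE 0.288, edgeR FDR 0.908) was 0.16 without those mice.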

How the data were processed

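RNA of 12 mice was sequenced by the authors in paired ends of 100 bp. Per the labels and the study's methods, the authors aligned reads to GRCm38.p2 with STAR 2.3.0, and assigned them to genes with featureCounts. The deposited values are raw counts per gene, 1 file per mouse, with the gene length in bp that the counting gave. Strand setting and annotation release are not given in the sources used here. Symbols came from the GENCODE M21 names, and 37607 of 38924 genes had one. The 20311 genes with 10 or more counts in 3 or more mice entered edgeR 4.0.16 (R 4.3.3, TMM factors 0.906 to 1.10, quasi-likelihood test, Benjamini-Hochberg FDR), and a gene was called at an FDR under 0.05 and a 2-fold change. CPM were TMM-scaled, RPKM used library totals, and log2 ratios to *Apc* used counts + 0.5. DESeq2 1.42.0, edgeR's exact test and limma 3.58.1 (voom) were alternatives. The edgeR, DESeq2 and limma fits were run on simulated counts, with the same dispersion for all genes and no library that stood apart. The exact permutation tests were checked on small made-up inputs with known answers. At 50313805 counts, the smallest library, the floor of 3 counts is 0.0596 CPM, and it covers counting error only. Labels name 12 mice but not litters, cages or shipments, and replicate numbers in accession order pair none of them. The members, the pathway list and the 12 marker lists were chosen with earlier results of these data known. Named were the 10 genes, the gene of lowest p and the most abundant gene of each pathway group, the 5 genes most like each of 4 members, and markers that were most abundant in a list or at 0. The GC slope, the member pairs and fits without M10_2, M13_1 and M17_1 were added after seeing the data.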

Additional observations from a re-analysis of the deposited data

Results flagged for a closer look

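Within a genotype, 20 groups of 6 mice (10 genes in each genotype) were searched for a single mouse far from the others by Dixon's criterion, in which the gap to the nearest mouse over the whole range must exceed the 95% critical value. Chance alone gives about 1 in 20 groups. For *Gsk3b* the APC Min/+ mouse M2_A had 76.1 CPM, where the nearest other APC Min/+ mouse had 112 CPM (gap over range 0.687). For *Csnk1a1* the WT mouse M17_1 had 312 CPM, where the nearest other WT mouse had 442 CPM (gap over range 0.660). These mice also had the highest mitochondrial shares of their genotypes, 8.46% and 12.7%, and GC slopes of -0.22 and -0.42, and the part of library quality in these values was not tested.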

How the results depend on the processing

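No alternative called any of the 10 genes or of the 53 pathway genes. Over all genes, DESeq2 called 27 and edgeR's exact test 103, the other fits 0. The count of the 10 genes at an unadjusted p under 0.05 (1, *Tcf7l2*) was 0 in the exact test, in limma voom, with the GC slope as covariate, without M10_2 and M13_1, and without those and M17_1, and it was 0 to 1 leaving out single mice, with 0 without M10_2, M13_1, M17_2, M18_2a or M17_1. For the pathway genes it was 0 in voom, with the suffix of the mouse names or the smooth muscle level as covariate and without the 2 or 3 mice, 1 with the GC slope, and 0 to 3 leaving out single mice, with 0 without M10_2 or M13_1 and 1 without M17_1. In DESeq2 the count of the pathway genes was 3.

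Small log2 fold changes turned sign. With the smooth muscle covariate *Apc* was -0.015, *Amer1* 0.022, *Gsk3a* -0.062 and *Csnk1a1* -0.027. Without M10_2, M13_1 and M17_1, *Apc* was -0.0019, *Axin1* -0.0064, *Gsk3a* -0.031 and *Gsk3b* -0.042. *Amer1* was 0.031 on library totals, *Gsk3a* -0.052 with the GC slope and *Ctnnb1* 0.011 without M10_2 and M13_1. Leaving out single mice gave -0.00069 to 0.13 for *Apc*, -0.0066 to 0.27 for *Axin1*, -0.077 to 0.029 for *Amer1*, -0.086 to 0.15 for *Gsk3a* and -0.018 to 0.12 for *Csnk1a1*. For the log2 ratio to *Apc*, medians in place of means, tested on ranks, gave -0.074 for *Axin1*, -0.19 for *Gsk3a* and -0.093 for *Csnk1a1*. Leaving out the 3 mice gave -0.042 for *Axin1*, -0.048 for *Gsk3a* and -0.066 for *Gsk3b*, and leaving out M10_2 and M13_1 gave -0.0018 for *Gsk3b*. Single mice left out gave -0.031 to 0.34 for *Apc2*, -0.027 to 0.24 for *Axin1*, -0.16 to 4.42e-05 for *Amer1*, -0.095 to 0.15 for *Gsk3a* and -0.048 to 0.075 for *Csnk1a1*. None of these genes was called in any of these fits, and the cause was not tested. With the GENCODE M21 lengths the ratio to *Apc* was 0.12 for *Btrc* and 1.85 for *Gsk3a*. The correlation of *Btrc* and *Tcf7l2* was -0.14 without the common GC term and -0.93 without each gene's own fit on the GC slope. No paired analysis was possible because the labels give no numbers that pair mice. Precision was lowest for *Apc2*, which rested on 118 to 538 counts in a mouse. Of the 45 pairs of the 10 genes, 3 passed the test across mice. Under either way of taking out the GC slope 5 passed, but not the same 5. The common term dropped *Btrc* with *Tcf7l2* and added *Apc* with *Gsk3b*, *Axin1* with *Csnk1a1* and *Axin1* with *Btrc*. Each gene's own fit kept the 3 pairs and added *Apc* with *Gsk3b* and *Gsk3a* with *Ctnnb1*.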
